A study of Mus musculus with 6 samples.

Results

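The cell cycle and DNA replication genes described here are 42 genes, named by symbol, of the 55335 genes in the deposited expression table of mouse sciatic nerve. All 42 symbols were found by way of their Ensembl gene ID. By role they are 19 genes of mitosis, 10 of DNA replication, 4 of S phase entry (Ccne1, Ccne2, Cdk2, E2f1), 6 of the G1 phase (the D cyclins, Cdk4, Cdk6 and Rb1) and 3 inhibitors of cyclin-dependent kinases (Cdkn1a, Cdkn1b, Cdkn2c). Polyadenylated RNA was sequenced from nerve lysates taken at postnatal day 14, in 3 libraries of icKO mice and 3 libraries of flox mice. The icKO mice were RhoAfl/fl ChATCreERT2+ and the flox mice RhoAfl/fl, so both groups carried homozygous floxed RhoA, the gene of a small GTPase that controls the actin cytoskeleton. ChATCreERT2 is a tamoxifen-dependent Cre recombinase driven by the choline acetyltransferase gene, which is active in motoneurons and other cholinergic neurons. The cell bodies of spinal motoneurons are not in the nerve, which holds only their axons. When Cre was induced, whether flox mice received the inducing drug, and whether each library came from a separate animal are not stated in the labels. The p-values below therefore reflect only how far these libraries differ, in part perhaps for technical reasons.

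A cell that divides passes through G1, copies its DNA in S phase, and separates the copies in mitosis. D cyclins with Cdk4 and Cdk6, and then E cyclins with Cdk2, phosphorylate the retinoblastoma protein and so release E2F factors, which switch on replication genes. Inhibitors such as p21 and p27 hold the kinases back. Mitotic genes are transcribed late in the cycle and are close to silent in resting cells, so in tissue RNA they act as a gauge of how many cells are cycling. G1 genes and inhibitors are also made by resting cells. In the sciatic nerve Schwann cells multiply mainly before and around birth and leave the cycle when they begin to myelinate, and fibroblasts, endothelial cells and macrophages of the growing nerve also divide in the first postnatal weeks.

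Values are FPKM, fragments divided by transcript length and by library total, which can be compared between genes. Estimated library depth was 17200000 to 20600000 fragments. Rhoa averaged 34.4 ± 1.75 FPKM in icKO nerves and 37.9 ± 1.24 FPKM in flox nerves (SD, n = 3 each), a log2(FPKM + 1) difference of -0.13 that did not pass the test (SE 0.08, limma with Benjamini-Hochberg adjustment, adjusted p = 0.195). All 5 markers of motoneurons, Chat among them, were under 0.1 FPKM in every library, so the deletion cannot be checked in the cells it is aimed at. Markers of Schwann cells summed to 18371 to 20573 FPKM in icKO and 16017 to 19844 FPKM in flox libraries, so the defining genes of the labelled tissue were abundant. The libraries icKO replicate 3 and flox replicate 1 stood apart by skeletal muscle transcripts (10 markers, with sums of 1412 and 1137 FPKM, where the other 4 libraries had 6.89 to 295 FPKM). Flox replicate 2 had Xist at 46.1 FPKM and Ddx3y at 0, the reverse of the other 5 libraries, and so came from a female while they came from males.

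Each gene was tested with limma on log2(FPKM + 1), and called at a Benjamini-Hochberg adjusted p under 0.05. Of the 12860 genes whose mean reached 1 FPKM, 42.9% were called, 20.8% higher and 22.1% lower in icKO nerves. Only 24 of the 42 cell cycle genes reached that mean. The 18 below it were 15 mitotic genes, 2 replication genes and Ccne1, and 5 of these had a flox mean of at least 1 FPKM while none had such an icKO mean. Among the 24, Ccna2, Mcm5 and Rrm2 passed through their flox values alone. A filter on the mean thus partly sorts these genes by the difference itself, and counts over all 42 were taken from the same fit without a filter, over 30465 genes, of which 20.0% were called (9.62% higher, 10.3% lower). Differences and p-values below come from that fit for genes whose mean over all libraries or over either group was under 1 FPKM, and from the fit over 12860 genes for the others.

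Without a filter, 17 of the 42 genes were lower and 7 were higher in icKO nerves, 40.5% and 16.7% of the genes. The median difference was -0.26 on the log2(FPKM + 1) scale, against 0.00 over all genes. A further fit, chosen after the data were seen, kept the 19576 genes whose mean reached 0.1 FPKM and used a pseudocount of 0.1. In this fit 35.0% of all genes were called, 18.0% lower and 17.0% higher, and of the 42 genes 18 were lower and 9 higher. Cenpf, Hmmr, Cdca8 and Bub1 reached 0.1 FPKM through their flox values alone, so the limit of a filter given above holds for this fit too. In 21 genes every icKO library lay below every flox library, in 9 every icKO library lay above, and in 12 the groups overlapped. Over the 19576 genes the groups did not overlap in 51.4%, with icKO below in 26.3% and above in 25.1%. The count of 24 calls was 13 without the muscle-rich libraries. With each library left out in turn it was 12 without icKO replicate 1, 11 without icKO replicate 2, 15 without icKO replicate 3, 21 without flox replicate 1, 10 without flox replicate 2 and 9 without flox replicate 3.

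**Figure D1:**
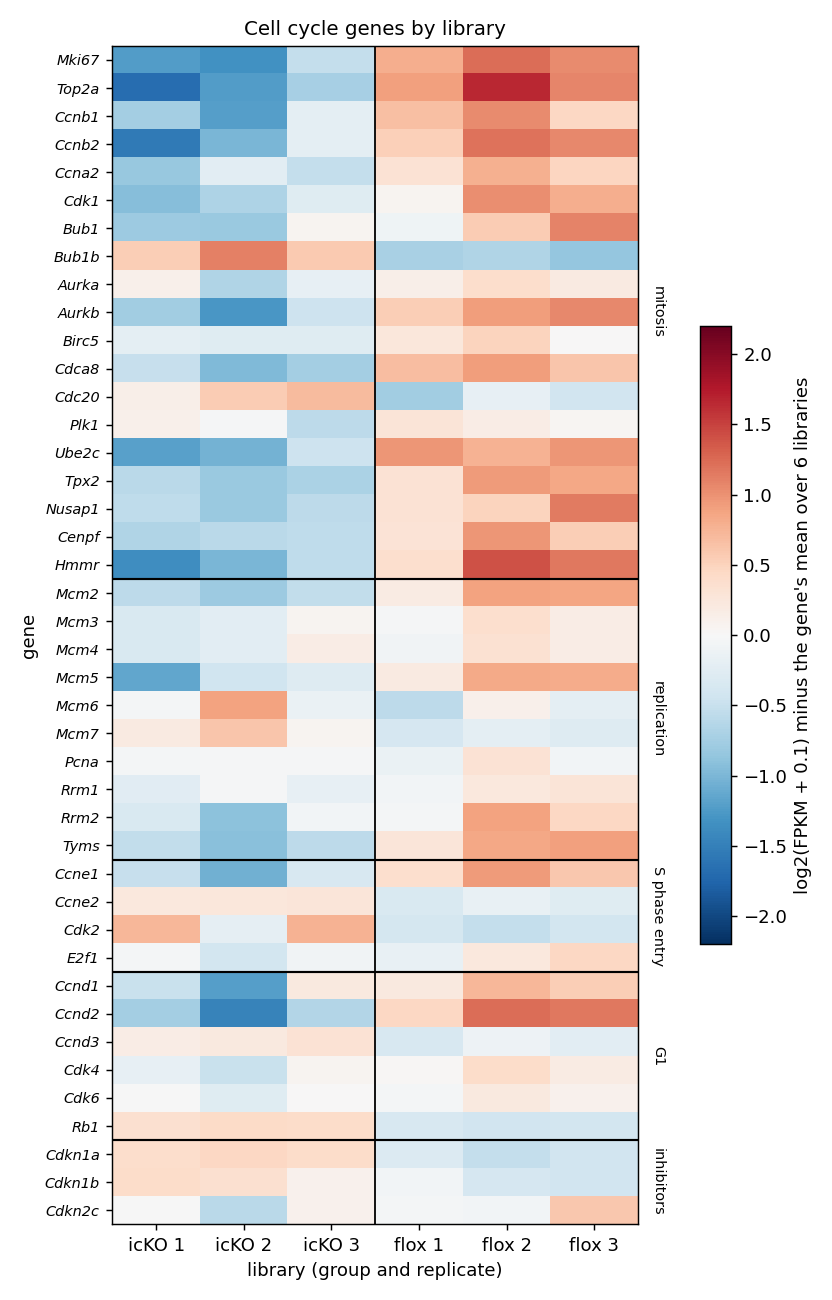
Level of each of the 42 genes (rows, grouped by role) in each library (columns, icKO left of flox), as log2(FPKM + 0.1) minus the gene's mean over the 6 libraries. Most mitotic rows are blue (below their mean) in the icKO columns and red (above it) in the flox columns, with Bub1b and Cdc20 the other way round, while the G1 and inhibitor rows run in both directions.

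Most mitotic genes were lower in icKO nerves. Without a filter 12 of 19 fell, 2 rose (Bub1b and Cdc20) and 5 did not pass. The shares were 63.2% lower and 10.5% higher, against 10.3% and 9.62% of all genes. The median difference of the 19 was -0.41 on the log2(FPKM + 1) scale. In 15 of the 19 every icKO library was below every flox library, and mean FPKM in flox nerves was 1.43 to 12.4 times that in icKO nerves (median 4.03). Over the 19576 genes whose mean reached 0.1 FPKM, icKO lay below flox in this way in 26.3%. In the fit over those genes 68.4% of the 19 were lower and 10.5% higher, against 18.0% and 17.0% of all genes. Mki67, the gene of the Ki-67 protein that coats mitotic chromosomes, was at 0.179, 0.160 and 0.355 FPKM in the icKO nerves, against 1.04, 1.43 and 1.23 FPKM in the flox nerves. It fell (log2 difference -0.86, SE 0.11, adjusted p = 0.00573, limma, Benjamini-Hochberg adjusted), and its flox mean was 5.34 times its icKO mean. Top2a encodes the topoisomerase that untangles replicated DNA and was at 0.0647, 0.124 and 0.215 FPKM in the icKO nerves, against 0.879, 1.56 and 1.01 FPKM in the flox nerves. It fell by the same test (log2 difference -0.91, SE 0.13, adjusted p = 0.00857), with a flox mean 8.52 times the icKO mean. Both genes showed the highest icKO value in icKO replicate 3 and the highest flox value in flox replicate 2, and a wide gap between the groups.

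The 3 cyclins of mitosis fell, and their kinase Cdk1 had a difference of the same sign. Ccnb2, a B-type cyclin that activates Cdk1, had 0.197, 0.339 and 0.654 FPKM in the icKO nerves, against 1.17, 1.91 and 1.72 FPKM in the flox nerves. Ccnb2 fell (log2 difference -0.90, SE 0.17, adjusted p = 0.0190, limma), and its pseudogene Ccnb2-ps reached 2.77 FPKM in the same table, so fragments may be shared between them. The other B cyclin, Ccnb1, had 0.113, 0.0548 and 0.210 FPKM in the icKO nerves, against 0.469, 0.637 and 0.392 FPKM in the flox nerves. Ccnb1 fell too (log2 difference -0.41, SE 0.08, adjusted p = 0.0214, limma), again with no overlap. Ccna2 encodes cyclin A2, which acts from S phase into mitosis, and was the only one of the 15 with a mean of at least 1 FPKM. It was at 0.577, 0.933 and 0.743 FPKM in the icKO nerves, against 1.41, 1.99 and 1.58 FPKM in the flox nerves. Ccna2 fell (log2 difference -0.60, SE 0.13, adjusted p = 0.0281, limma). Cdk1, the kinase that drives entry into mitosis, was at 0.0797, 0.116 and 0.184 FPKM in the icKO nerves, against 0.257, 0.598 and 0.499 FPKM in the flox nerves. The groups of Cdk1 did not overlap, yet the difference did not pass (log2 difference -0.36, SE 0.10, adjusted p = 0.0512, limma).

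Several genes of the spindle and of chromosome segregation also fell. Aurkb, the kinase of the chromosomal passenger complex, had 0.166, 0.0867 and 0.232 FPKM in the icKO nerves, against 0.564, 0.756 and 0.845 FPKM in the flox nerves. Aurkb fell (log2 difference -0.57, SE 0.09, adjusted p = 0.00962, limma). Cdca8, which encodes borealin of the same complex, had 0.0861, 0.0349 and 0.0587 FPKM in the icKO nerves, against 0.327, 0.403 and 0.306 FPKM in the flox nerves. Cdca8 fell (log2 difference -0.34, SE 0.04, adjusted p = 0.00490, limma). Birc5 (survivin), of the same complex, had 0.388, 0.367 and 0.371 FPKM in the icKO nerves, against 0.572, 0.692 and 0.470 FPKM in the flox nerves. Birc5 did not pass (log2 difference -0.20, SE 0.07, adjusted p = 0.125, limma). Incenp, the scaffold subunit, averaged 1.51 ± 0.233 FPKM in icKO and 1.71 ± 0.262 FPKM in flox nerves (SD, n = 3 each) and did not pass (log2 difference -0.11, SE 0.12, adjusted p = 0.500, limma). Of these 4 genes of the complex 2 thus fell, and the groups overlapped in Incenp alone. Ube2c, the ubiquitin-conjugating enzyme that works with the anaphase-promoting complex, had 0.215, 0.250 and 0.430 FPKM in the icKO nerves, against 1.31, 1.13 and 1.31 FPKM in the flox nerves. Ube2c fell (log2 difference -0.80, SE 0.10, adjusted p = 0.00545, limma). Of its 2600 exon bases 592 overlap Tnnc2, a gene of muscle troponin, on the opposite strand (42.3 FPKM in icKO and 64.8 FPKM in flox nerves). Tpx2, which activates the Aurora A kinase on the spindle, had 0.294, 0.236 and 0.266 FPKM in the icKO nerves, against 0.643, 1.04 and 0.967 FPKM in the flox nerves. Tpx2 fell (log2 difference -0.57, SE 0.10, adjusted p = 0.0145, limma). Aurora A itself, Aurka, averaged 0.604 ± 0.185 FPKM in icKO and 0.861 ± 0.0919 FPKM in flox nerves (SD, n = 3 each), and its difference did not pass (log2 difference -0.22, SE 0.11, adjusted p = 0.248, limma). In Ube2c and Tpx2 the flox values were several times the icKO values, whereas the highest icKO value of Aurka, 0.781 FPKM, nearly met its lowest flox value of 0.791 FPKM.

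Hmmr, Cenpf and Nusap1, all with group means under 1 FPKM, also fell. Hmmr, a spindle-associated protein, was listed at 0 in icKO replicate 1 and had 0.0290 and 0.0753 FPKM in the other icKO nerves, against 0.235, 0.578 and 0.476 FPKM in the flox nerves. Hmmr fell (log2 difference -0.46, SE 0.09, adjusted p = 0.0228, limma). Cenpf, a kinetochore protein, had 0.0180, 0.0246 and 0.0265 FPKM in the icKO nerves, against 0.131, 0.268 and 0.172 FPKM in the flox nerves. Cenpf fell (log2 difference -0.22, SE 0.04, adjusted p = 0.0225, limma). Nusap1, which bundles spindle microtubules, had 0.280, 0.218 and 0.278 FPKM in the icKO nerves, against 0.596, 0.690 and 1.14 FPKM in the flox nerves. Nusap1 fell (log2 difference -0.51, SE 0.12, adjusted p = 0.0355, limma). The groups did not overlap in these 3 genes. Hmmr rested on an estimated 0 to 6 fragments in icKO libraries and 16 to 46 in flox libraries, and Cenpf on 4 to 6 and 25 to 61. Mki67 rested on an estimated 31 to 70 fragments in icKO and 179 to 297 in flox libraries. In 5 genes (Ccnb1, Bub1, Aurkb, Cdca8 and Hmmr) at least 1 library held 3 or fewer estimated fragments.

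Bub1b and Cdc20, both of the spindle checkpoint that delays chromosome separation, went the other way. Bub1b encodes BubR1, a checkpoint kinase that binds Cdc20, and was at 3.37, 5.04 and 3.45 FPKM in the icKO nerves, against 1.35, 1.42 and 1.22 FPKM in the flox nerves. It rose (log2 difference 1.07, SE 0.14, adjusted p = 0.00199, limma), and its icKO mean was 2.97 times its flox mean. Cdc20, the protein that BubR1 holds back and the activator of the anaphase-promoting complex, was at 5.54, 7.48 and 8.26 FPKM in the icKO nerves, against 2.93, 4.45 and 3.75 FPKM in the flox nerves. Cdc20 rose (log2 difference 0.78, SE 0.17, adjusted p = 0.0117, limma). These had the highest icKO levels of the 19 mitotic genes, at 3.95 ± 0.941 FPKM for Bub1b and 7.09 ± 1.4 FPKM for Cdc20 (SD, n = 3). The 15 genes with every icKO library below every flox library averaged 0.751 FPKM or less in icKO nerves. Bub1, the related checkpoint kinase, averaged 0.0668 ± 0.0617 FPKM in icKO and 0.246 ± 0.139 FPKM in flox nerves (SD, n = 3 each) and did not pass (log2 difference -0.22, SE 0.09, adjusted p = 0.148, limma). Plk1, the polo-like kinase, averaged 1.5 ± 0.381 FPKM in icKO and 1.87 ± 0.162 FPKM in flox nerves (SD, n = 3 each) and did not pass either (log2 difference -0.21, SE 0.13, adjusted p = 0.249, limma). In the fit over 12860 genes the rise of Cdc20 was no longer called without the muscle-rich libraries. Of its exons 53 of 1868 bases overlap Elovl1 on the opposite strand (95.3 FPKM in icKO and 133 FPKM in flox nerves), which matters if fragments were counted without strand.

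Without a filter 14 of the 19 mitotic genes were called in either direction. That count was 8 without icKO replicate 1, 7 without icKO replicate 2, 9 without icKO replicate 3, 13 without flox replicate 1 and 7 without either flox replicate 2 or flox replicate 3. It was 7 without both muscle-rich libraries, all of them lower. Mki67, Aurkb and Ube2c remained called in each of these fits. Top2a, Cdca8 and Bub1b lost their call only without both muscle-rich libraries. The rise of Cdc20 was called without icKO replicate 1 alone among these fits, and the fall of Ccna2 only without icKO replicate 2 or flox replicate 1. Ccnb1 was called without icKO replicate 3 alone among these fits, and Ccnb2 lost its call without icKO replicate 1 or 2 or flox replicate 2 or 3. Tpx2 lost it without icKO replicate 2 or flox replicate 2 or 3, and Nusap1, Cenpf and Hmmr each lost it when any icKO library, or at least 1 of the flox libraries, was left out. Within the flox group the levels were uneven, since flox replicate 1 was the lowest flox library in 11 of the 15 mitotic genes without overlap, and icKO replicate 3 was the highest icKO library in 9 of the 15. The library icKO replicate 3, besides its muscle transcripts, had neutrophil markers summing to 9.08 FPKM, where the other 5 libraries had 0.228 to 1.06 FPKM, and the part of these cells was not tested.

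**Figure D2:**
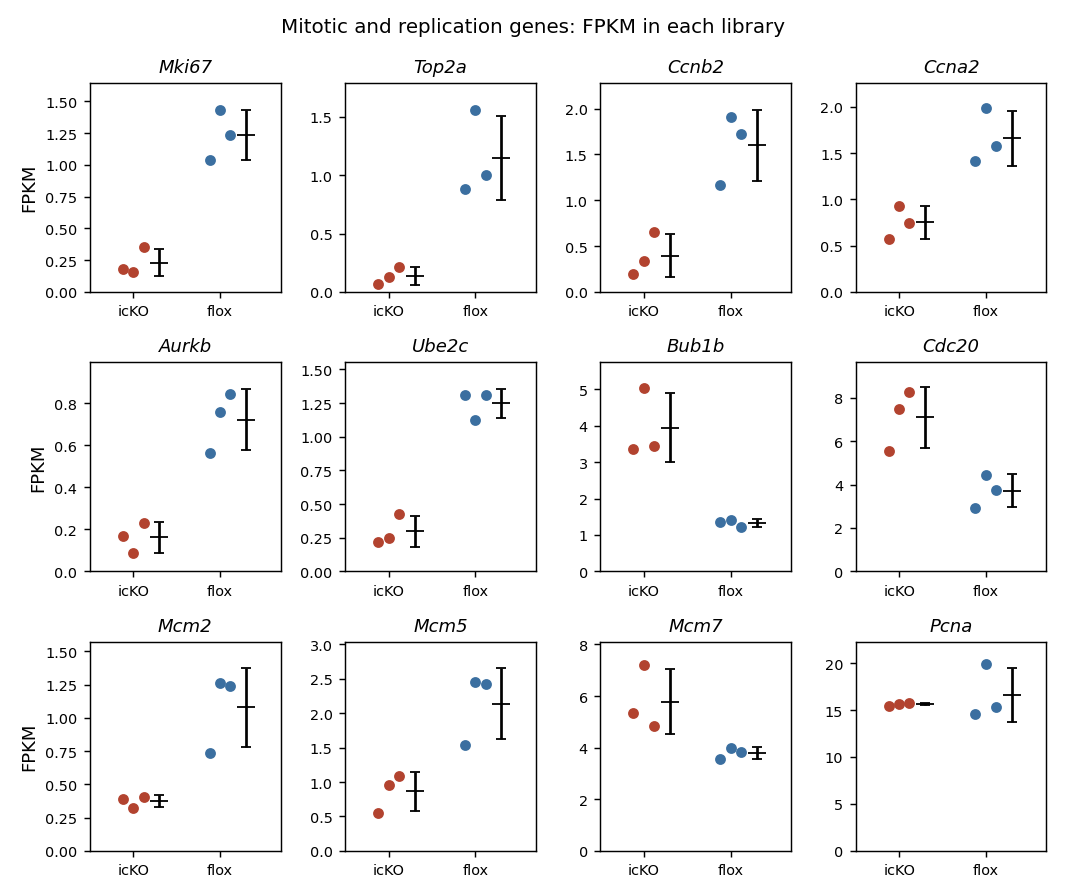
FPKM in each library (points, replicates 1 to 3 from left to right) of 8 mitotic and 4 replication genes, icKO left of flox, with the mean and SD (n = 3) beside the points and axes from 0. Mki67, Top2a, the cyclins, Aurkb, Ube2c, Mcm2 and Mcm5 have all icKO points below the flox points, Bub1b, Cdc20 and Mcm7 have them above, and Pcna overlaps.

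Promoter sequences were searched because genes transcribed late in the cycle often carry a CHR element, a short motif bound by the DREAM and MuvB complexes, near CCAAT boxes. The CHR was searched as TTTGAA or TTCGAA, the CCAAT box as CCAAT, and the E2F site as TTTCCCGC, TTTCGCGC, TTTGCCGC or TTTGGCGC, on both strands, in RefSeq windows (build GRCm38.p6) from 250 bases before to 50 bases after each start. Of the 42 genes 34 had a window. A CHR stood in 13 of 16 windows of mitotic genes (81.2%), in 2 of 10 of replication genes (20.0%) and in 0 of 12 of G1, S phase entry and inhibitor genes, where 19.2% of all 32851 windows hold one. A CCAAT box stood in 87.5% of the mitotic, 90.0% of the replication and 33.3% of the other windows of the list, against 37.4% of all windows. Both motifs together were in 81.2% of the mitotic windows and 7.5% of all windows, and an E2F site was in 40.0% of the replication windows and 2.3% of all windows.

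The bases before the start follow for 2 mitotic genes that fell, for both mitotic genes that rose, and for 1 replication gene. Matches to the CHR (or TTCAAA on the other strand), to CCAAT (or ATTGG) and to the E2F site are in capitals. Ccnb2 lies at chr9:70421555-70421804 (minus strand) and Top2a at chr11:99024190-99024439 (minus strand). Bub1b lies at chr2:118597961-118598210 (plus strand), Cdc20 at chr4:118437344-118437593 (minus strand) and Mcm5 at chr8:75109259-75109508 (plus strand).
Ccnb2: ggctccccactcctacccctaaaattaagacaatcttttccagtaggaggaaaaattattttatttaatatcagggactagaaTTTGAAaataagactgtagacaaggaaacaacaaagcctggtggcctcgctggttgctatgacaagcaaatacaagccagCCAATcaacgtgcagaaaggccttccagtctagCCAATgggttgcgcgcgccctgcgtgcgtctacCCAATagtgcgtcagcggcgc
Top2a: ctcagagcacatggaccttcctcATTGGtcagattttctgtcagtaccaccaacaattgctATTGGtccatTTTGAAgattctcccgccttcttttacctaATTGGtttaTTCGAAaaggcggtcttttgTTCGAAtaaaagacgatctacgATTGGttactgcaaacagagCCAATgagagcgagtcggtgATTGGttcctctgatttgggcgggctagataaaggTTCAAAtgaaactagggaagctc
Bub1b: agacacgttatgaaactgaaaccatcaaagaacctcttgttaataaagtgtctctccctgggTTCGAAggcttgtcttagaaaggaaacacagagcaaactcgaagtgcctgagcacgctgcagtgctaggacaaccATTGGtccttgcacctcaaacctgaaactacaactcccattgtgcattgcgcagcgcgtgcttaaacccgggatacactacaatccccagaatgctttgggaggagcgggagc
Cdc20: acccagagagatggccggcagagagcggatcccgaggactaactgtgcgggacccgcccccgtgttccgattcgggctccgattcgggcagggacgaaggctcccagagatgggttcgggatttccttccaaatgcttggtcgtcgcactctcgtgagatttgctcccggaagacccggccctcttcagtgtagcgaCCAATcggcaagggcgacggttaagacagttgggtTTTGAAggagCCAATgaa
Mcm5: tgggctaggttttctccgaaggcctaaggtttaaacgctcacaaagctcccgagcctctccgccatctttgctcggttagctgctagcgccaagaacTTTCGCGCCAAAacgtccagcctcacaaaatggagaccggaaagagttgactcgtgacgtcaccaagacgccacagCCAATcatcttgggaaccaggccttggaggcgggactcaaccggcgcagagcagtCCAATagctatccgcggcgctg
Top2a held 4 CHR and 6 CCAAT matches in these 250 bases, and Ccnb2 held 1 and 3. Cdc20, which rose, held 1 CHR and 2 CCAAT matches, and Bub1b, which rose, held 1 of each, so the presence of these letters did not separate the mitotic genes that fell from those that rose. Mcm5 held no CHR, 2 CCAAT matches and 2 E2F matches that overlap on opposite strands within the run TTTCGCGCCAAA. A match is a description of the letters and not a bound site.

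Replication genes were mixed. Without a filter 3 of 10 fell (Mcm2, Mcm5, Tyms), 0 rose and 7 did not pass, while at an unadjusted p under 0.05 there were 4 lower and 1 higher (limma). Their median difference was -0.25 on the log2(FPKM + 1) scale. The fit over genes of at least 1 FPKM tested 8 of them and called Mcm5 lower and Mcm7 higher. That is 12.5% each way, against 22.1% lower and 20.8% higher of all genes in that fit. Mcm2 to Mcm7 encode the 6 subunits of the ring helicase that opens DNA at replication origins. Mcm2 was at 0.392, 0.323 and 0.404 FPKM in the icKO nerves, against 0.733, 1.26 and 1.24 FPKM in the flox nerves. Mcm2 fell (log2 difference -0.59, SE 0.13, adjusted p = 0.0263, limma). Mcm5 was at 0.547, 0.958 and 1.08 FPKM in the icKO nerves, against 1.54, 2.45 and 2.42 FPKM in the flox nerves. Mcm5 fell (log2 difference -0.75, SE 0.18, adjusted p = 0.0366, limma). Mcm7 was at 5.34, 7.19 and 4.83 FPKM in the icKO nerves, against 3.57, 3.99 and 3.82 FPKM in the flox nerves. Mcm7 rose (log2 difference 0.49, SE 0.14, adjusted p = 0.0267, limma). The groups did not overlap in these 3 subunits, 2 of them below and 1 above. The rise of Mcm7 missed the threshold without a filter (adjusted p = 0.0582) and when icKO replicate 1 or any of the flox replicates was left out. Of the 4426 exon bases of Mcm7 64 overlap Cops6 and 321 overlap Ap4m1 on the opposite strand. Mcm3 averaged 2.48 ± 0.366 FPKM in icKO and 3.17 ± 0.452 FPKM in flox nerves (SD, n = 3 each). Mcm4 averaged 4.32 ± 0.838 FPKM in icKO and 5.22 ± 0.747 FPKM in flox nerves (SD, n = 3 each). Mcm6 averaged 1.93 ± 0.855 FPKM in icKO and 1.33 ± 0.335 FPKM in flox nerves (SD, n = 3 each). In these 3 subunits the groups overlapped and the differences did not pass (adjusted p = 0.123, 0.229 and 0.286, limma). Subunits of 1 complex therefore showed differences of both signs.

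Pcna, the sliding clamp of the replicative polymerases and the most abundant gene of the replication group, was at 15.5, 15.7 and 15.7 FPKM in the icKO nerves, against 14.6, 19.9 and 15.3 FPKM in the flox nerves. Its difference did not pass (log2 difference -0.07, SE 0.12, adjusted p = 0.671, limma) and had the opposite sign without flox replicate 2. A processed copy, Pcna-ps2, reached 13.7 FPKM in the same table, so fragments may be shared between them. Tyms, thymidylate synthase, was at 0.277, 0.189 and 0.268 FPKM in the icKO nerves, against 0.562, 0.889 and 0.925 FPKM in the flox nerves. Tyms fell (log2 difference -0.52, SE 0.10, adjusted p = 0.0191, limma). Rrm2, the regulatory subunit of ribonucleotide reductase, was at 0.803, 0.508 and 1.0 FPKM in the icKO nerves, against 1.01, 2.02 and 1.47 FPKM in the flox nerves. The highest icKO value nearly met the lowest flox value, and the difference did not pass (log2 difference -0.49, SE 0.19, adjusted p = 0.139, limma). Rrm1, the catalytic subunit, averaged 2.51 ± 0.210 FPKM in icKO and 3.12 ± 0.393 FPKM in flox nerves (SD, n = 3 each) and did not pass (log2 difference -0.23, SE 0.10, adjusted p = 0.118, limma). The count of 3 falls without a filter was 0 when icKO replicate 1, 2 or 3, flox replicate 2 or flox replicate 3 was left out, and 3 without flox replicate 1. In the 5 fits with 0 calls, 4 to 6 of the 10 genes had an unadjusted p under 0.05.

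Of the genes of S phase entry, the 2 E cyclins moved apart. Ccne1 was at 0.273, 0.154 and 0.315 FPKM in the icKO nerves, against 0.584, 0.905 and 0.698 FPKM in the flox nerves. Ccne1 fell (log2 difference -0.47, SE 0.10, adjusted p = 0.0224, limma). Ccne2 was at 1.87, 1.88 and 1.92 FPKM in the icKO nerves, against 1.23, 1.39 and 1.29 FPKM in the flox nerves. Ccne2 rose (log2 difference 0.33, SE 0.08, adjusted p = 0.0206, limma). In both genes the groups did not overlap, with Ccne1 lower and Ccne2 higher in every icKO library, and Ccne2 was the higher of the pair in both groups. Cdk2, the kinase of the E cyclins, was at 5.69, 2.91 and 5.83 FPKM in the icKO nerves, against 2.56, 2.32 and 2.52 FPKM in the flox nerves. Cdk2 rose (log2 difference 0.70, SE 0.22, adjusted p = 0.0381, limma). The value of Cdk2 in icKO replicate 2 lay close above the flox values, and those in the other icKO libraries lay well above them. E2f1, a factor that turns on replication genes, was at 1.1, 0.841 and 1.07 FPKM in the icKO nerves, against 1.01, 1.37 and 1.59 FPKM in the flox nerves, with overlapping groups and no call (log2 difference -0.20, SE 0.13, adjusted p = 0.239, limma). The calls of Ccne2 and Cdk2 were both lost when any of the 3 flox replicates or both muscle-rich libraries were left out. That of Cdk2 was also lost without icKO replicate 1 or 3 and without a filter (adjusted p = 0.0848). That of Ccne1 was lost without icKO replicate 1 or 2 or flox replicate 2 or 3 and without the muscle-rich libraries. Of the exon bases of Ccne2 609 of 3495 overlap Ints8 on the opposite strand. In all, 17 of the 42 genes share exon bases with another gene, among them Cdk4 with Tspan31 (641 of 3249 bases) and Ccnd1 with LTO1 (1100 of 4709). Rb1 shares 488 of 6015 bases with Rcbtb2 and 408 with Lpar6, and Ccnd3 shares 361 of 8775 with Bysl, all on the opposite strand.

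Of the D cyclins, which link growth signals to Cdk4 and Cdk6, Ccnd2 and Ccnd3 moved apart. Ccnd2 was at 1.72, 1.0 and 1.85 FPKM in the icKO nerves, against 4.07, 7.06 and 6.71 FPKM in the flox nerves. Ccnd2 fell (log2 difference -1.45, SE 0.22, adjusted p = 0.00306, limma), with a flox mean 3.91 times its icKO mean. Ccnd3 was at 6.13, 6.4 and 6.82 FPKM in the icKO nerves, against 4.29, 5.05 and 4.68 FPKM in the flox nerves. Ccnd3 rose (log2 difference 0.39, SE 0.08, adjusted p = 0.0110, limma), with an icKO mean 1.38 times its flox mean. Ccnd1, the most abundant of the 3, was at 13.3, 8.02 and 21.6 FPKM in the icKO nerves, against 21.6, 30.8 and 27.2 FPKM in the flox nerves, and its difference did not pass (log2 difference -0.93, SE 0.32, adjusted p = 0.0553, limma). In icKO replicate 3 Ccnd1 was level with flox replicate 1, both being the muscle-rich libraries, and the other icKO values lay below all flox values. Ccnd1 passed when icKO replicate 3 or both muscle-rich libraries were left out, and under median-of-ratios scaling, while Ccnd3 did not pass without the muscle-rich libraries.

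The partners of the D cyclins showed less. Cdk4 was at 12, 9.78 and 14.2 FPKM in the icKO nerves, against 14, 18.2 and 15.5 FPKM in the flox nerves (log2 difference -0.39, SE 0.15, adjusted p = 0.0806, limma), and passed without icKO replicate 3 and without both muscle-rich libraries. Cdk6 was at 1.76, 1.45 and 1.77 FPKM in the icKO nerves, against 1.71, 2.08 and 1.88 FPKM in the flox nerves (log2 difference -0.12, SE 0.10, adjusted p = 0.361, limma). In both kinases the groups overlapped in part and the difference did not pass with all 6 libraries. Rb1, the retinoblastoma protein that these kinases inactivate, was at 17.1, 17.9 and 17.7 FPKM in the icKO nerves, against 10.5, 9.98 and 10.2 FPKM in the flox nerves. It rose (log2 difference 0.73, SE 0.07, adjusted p = 0.000811, limma), with an icKO mean 1.72 times the flox mean and an SD of 0.414 FPKM in icKO and 0.288 FPKM in flox nerves (n = 3 each). The call of Rb1 held with each library left out in turn and without both muscle-rich libraries.

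Cdkn1a and Cdkn1b, both kinase inhibitors, were the most abundant genes of the list. Cdkn1a encodes p21, which blocks Cdk2 complexes and is induced by p53 and by stress signals, and was at 235, 248 and 240.1 FPKM in the icKO nerves, against 146, 125 and 135 FPKM in the flox nerves. It rose (log2 difference 0.83, SE 0.09, adjusted p = 0.00107, limma), with an icKO mean 1.78 times the flox mean. Cdkn1b encodes p27, which holds differentiated cells out of the cycle, and was at 80.3, 77.6 and 65 FPKM in the icKO nerves, against 58.5, 47.3 and 45.7 FPKM in the flox nerves. It rose as well (log2 difference 0.55, SE 0.13, adjusted p = 0.0151, limma), with an icKO mean 1.47 times the flox mean, and its call was lost without icKO replicate 1, flox replicate 2 or flox replicate 3. Cdkn2c encodes p18, an inhibitor of Cdk4 and Cdk6, and was at 3.3, 2.16 and 3.55 FPKM in the icKO nerves, against 3.21, 3.17 and 5.06 FPKM in the flox nerves, with overlapping groups and no call (log2 difference -0.26, SE 0.20, adjusted p = 0.322, limma). The 3 inhibitors summed to 309 to 328 FPKM in icKO libraries and 175 to 208 FPKM in flox libraries.

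**Figure D3:**
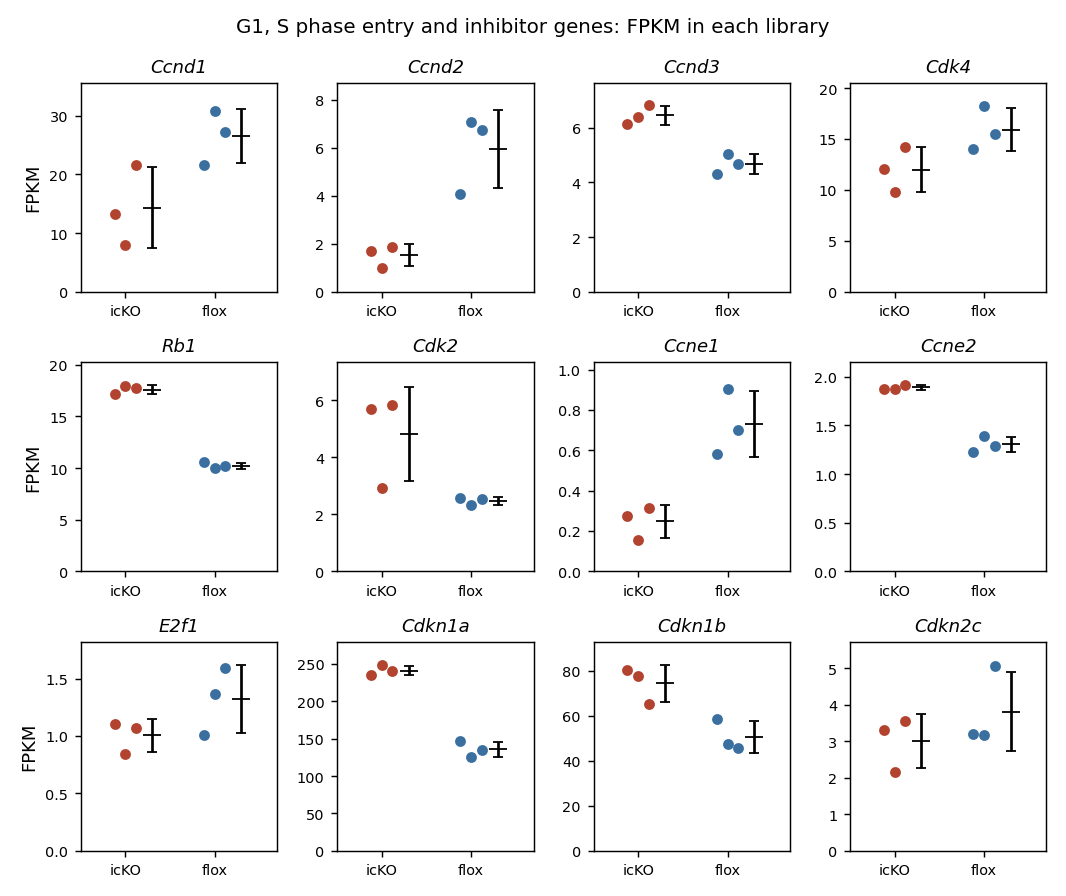
FPKM in each library (points, replicates 1 to 3 from left to right) of 12 genes of the G1 phase, S phase entry and kinase inhibition, icKO left of flox, with the mean and SD (n = 3) beside the points and axes from 0. Rb1, Cdkn1a, Cdkn1b, Ccnd3, Ccne2 and Cdk2 have all icKO points above the flox points, Ccnd2 and Ccne1 have them below, and the other 4 genes overlap.

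Set side by side, the 29 replication and mitotic genes and the 13 genes of G1, S phase entry and inhibition differed in their counts. Without a filter 15 of the 29 were lower and 2 higher in icKO nerves, with a median difference of -0.36, and 2 of the 13 were lower and 5 higher, with a median of -0.12, both on the log2(FPKM + 1) scale. Of all genes in that fit 10.3% were lower and 9.62% higher. No test of this contrast was made, since genes are not replicates. The 13 genes summed to 378 to 382 FPKM in icKO libraries and 255 to 269.6 FPKM in flox libraries. Most of this was Cdkn1a and Cdkn1b, with means of 241 and 74.3 FPKM in icKO and 136 and 50.5 FPKM in flox nerves. The D cyclins, Cdk4, Cdk6 and Rb1 summed to 44.6 to 64.0 FPKM in icKO and 56.3 to 73.2 FPKM in flox libraries, which overlap. S phase entry genes summed to 5.79 to 9.14 FPKM in icKO and 5.38 to 6.11 FPKM in flox libraries, which overlap too. The 29 genes summed to 46.7 to 54.4 FPKM in icKO and 49.6 to 67.7 FPKM in flox libraries. The sums of the 29 overlapped, and the most abundant of them include Pcna, Cdc20, Mcm7 and Bub1b, which did not fall.

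**Figure D4:**
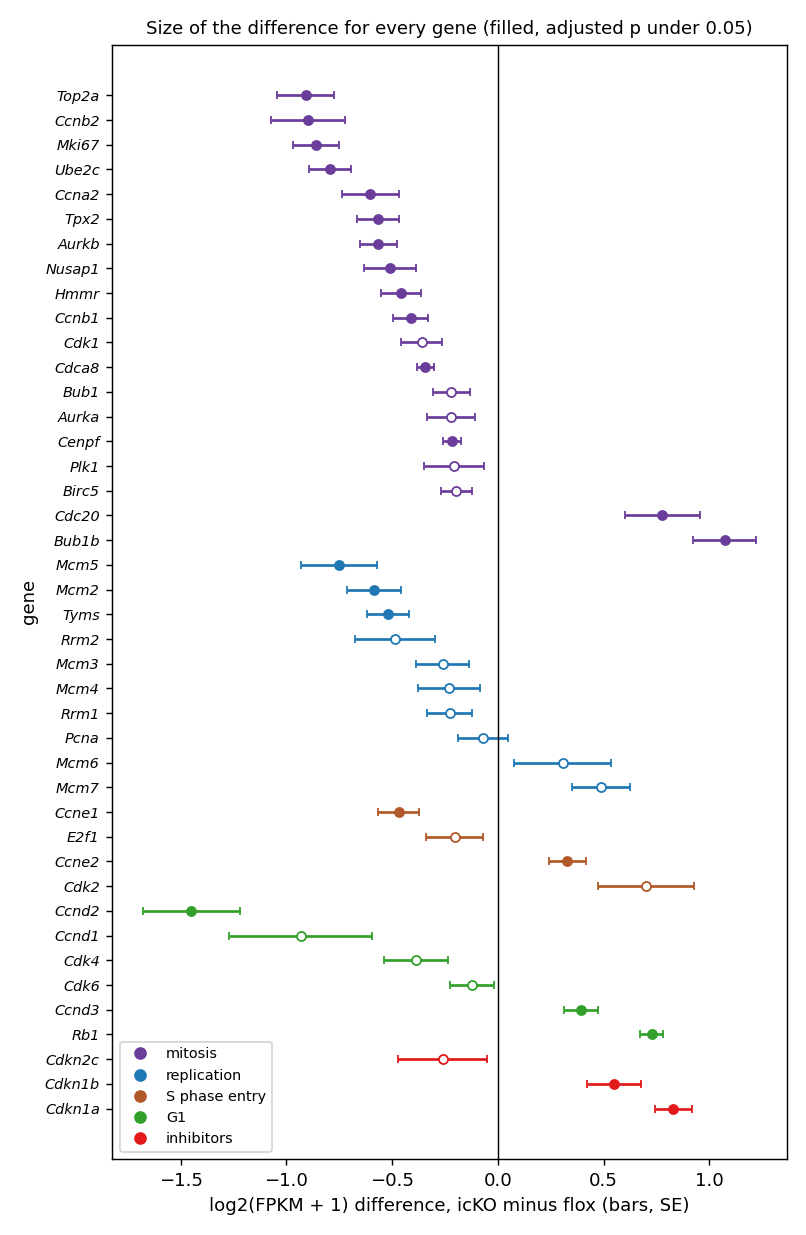
Difference of each of the 42 genes between icKO and flox nerves on the log2(FPKM + 1) scale, from the fit without a filter (points, bars for 1 SE), coloured by role; filled points have an adjusted p under 0.05. Mitotic genes lie left of 0 apart from Cdc20 and Bub1b, and the other roles spread to both sides, from -1.45 for Ccnd2 to 0.83 for Cdkn1a; the scale understates the change of genes under 1 FPKM.

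Wider lists of the same pathway, written from textbook knowledge but with earlier results of these data known, were counted beside the 42. Of 53 other mitosis genes, 23 were lower and 0 higher without a filter (36 and 1 at an unadjusted p under 0.05, limma). The 23 were 43.4% of the list, while of all genes in that fit 10.3% were lower and 9.62% higher. The median difference of the 53 was -0.32, and in 39 every icKO library was below every flox library while in 0 it was above. Over the 19576 genes whose mean reached 0.1 FPKM these shares were 26.3% and 25.1%. The fit over those genes tested 52 of the 53 and called 28 lower and 0 higher (53.8% lower, against 18.0% of all genes). The fit over genes of at least 1 FPKM tested 14 of the 53 and called 6, all lower (42.9%, against 22.1% of all genes in that fit). Cenpm, among these 6, reached that mean through its flox values alone, so the limit of the filter given above holds here too. Cks2, a small partner of Cdk1, averaged 1.36 ± 0.260 FPKM in icKO and 3.91 ± 0.380 FPKM in flox nerves (log2 difference -1.06, adjusted p = 0.00115). Cenpm, a kinetochore protein, averaged 0.421 ± 0.115 FPKM in icKO and 2.01 ± 0.346 FPKM in flox nerves (log2 difference -1.08, adjusted p = 0.00494, without a filter). Both fell, with every icKO library below every flox library. Ncapd2, of the condensin complex, averaged 2.08 ± 0.0346 FPKM in icKO and 2.75 ± 0.0482 FPKM in flox nerves (log2 difference -0.28, adjusted p = 0.0238). Pttg1 (securin) averaged 6.25 ± 0.291 FPKM in icKO and 8.17 ± 0.949 FPKM in flox nerves (log2 difference -0.33, adjusted p = 0.0326). These smaller falls were lost when any of the 3 flox replicates (Ncapd2) or any library but flox replicate 2 (Pttg1) was left out. Of these 53 genes 45 had promoter windows, and a CHR stood in 37 of their 49 windows (75.5%, against 19.2% of all windows). The count of 23 was 11 without the muscle-rich libraries, 15 without icKO replicate 1, 14 without icKO replicate 2 and 15 without flox replicate 3.

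Of 44 other replication genes, 8 were lower and 6 higher without a filter (18.2% and 13.6%, against 10.3% and 9.62% of all genes), with a median of -0.12. In the fit over 19576 genes the shares were 22.7% lower and 18.2% higher, against 18.0% and 17.0% of all genes. Of the 32 tested at 1 FPKM or more 7 were lower and 5 higher (21.9% and 15.6%), near the 22.1% and 20.8% of all genes in that fit. Gmnn and Cdc7, among the 7 lower genes, reached that mean through their flox values alone. Dck, deoxycytidine kinase, averaged 1.23 ± 0.135 FPKM in icKO and 2.34 ± 0.354 FPKM in flox nerves (log2 difference -0.58, adjusted p = 0.00761). Gmnn (geminin), which prevents a repeat of origin licensing, averaged 0.912 ± 0.225 FPKM in icKO and 1.7 ± 0.0776 FPKM in flox nerves (log2 difference -0.51, adjusted p = 0.0357, without a filter). Rpa1, of the single-strand binding complex, averaged 5.74 ± 0.665 FPKM in icKO and 9.42 ± 1.88 FPKM in flox nerves (log2 difference -0.62, adjusted p = 0.0145), and Cdc7, the kinase that fires origins, averaged 0.757 ± 0.160 FPKM in icKO and 1.59 ± 0.321 FPKM in flox nerves (log2 difference -0.56, adjusted p = 0.0362, without a filter). These 4 fell. Without a filter Cdc7 lost its call with any 1 library left out, and Gmnn without icKO replicate 1 or any flox replicate. Orc3, of the origin recognition complex, averaged 6.72 ± 0.0884 FPKM in icKO and 4.25 ± 0.273 FPKM in flox nerves (log2 difference 0.56, adjusted p = 0.00215). Orc6, of the same complex, averaged 6.58 ± 0.628 FPKM in icKO and 4.33 ± 0.477 FPKM in flox nerves (log2 difference 0.51, adjusted p = 0.00864). Fen1, the flap nuclease of lagging-strand synthesis, averaged 4.12 ± 1.1 FPKM in icKO and 1.89 ± 0.321 FPKM in flox nerves (log2 difference 0.81, adjusted p = 0.00907). These 3 rose.

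Of 51 other regulators, 8 were lower and 6 higher without a filter, with a median of -0.08. These were 15.7% and 11.8% of the 51, against 10.3% and 9.62% of all genes. In the fit over 19576 genes the shares were 19.6% lower and 13.7% higher, against 18.0% and 17.0% of all genes. Of the 41 tested at 1 FPKM or more 8 were lower and 8 higher, 19.5% each and near the share of all genes in that fit. Mycn and Cdkn2a, among the 8 lower genes, reached that mean through their flox values alone. Mycn, a growth-promoting factor, averaged 0.994 ± 0.377 FPKM in icKO and 4.92 ± 0.551 FPKM in flox nerves (log2 difference -1.58, adjusted p = 0.00357, without a filter). Cdkn2a, an inhibitor gene, averaged 0.561 ± 0.0581 FPKM in icKO and 2.38 ± 0.359 FPKM in flox nerves (log2 difference -1.11, adjusted p = 0.00379, without a filter). Cdkn2b, its neighbour and also an inhibitor gene, averaged 2.14 ± 0.279 FPKM in icKO and 5.07 ± 0.943 FPKM in flox nerves (log2 difference -0.94, adjusted p = 0.00247). Ccng1, a p53 target, averaged 14.1 ± 0.302 FPKM in icKO and 22.1 ± 0.602 FPKM in flox nerves (log2 difference -0.62, adjusted p = 0.00121). These 4 fell. Cdk7, the kinase that activates other cyclin-dependent kinases, averaged 18.4 ± 2.09 FPKM in icKO and 6.0 ± 0.422 FPKM in flox nerves (log2 difference 1.47, adjusted p = 0.000427). Cdkn1c (p57), a relative of p21 and p27, averaged 27.1 ± 2.25 FPKM in icKO and 11.6 ± 1.15 FPKM in flox nerves (log2 difference 1.2, adjusted p = 0.000741). Rbl2 (p130), a relative of the retinoblastoma protein that is found in resting cells, averaged 14.8 ± 1.5 FPKM in icKO and 7.61 ± 0.173 FPKM in flox nerves (log2 difference 0.87, adjusted p = 0.000960). These 3 rose. Cdkn2d (p19), of the p16 family like Cdkn2b and Cdkn2c, averaged 10.2 ± 3.0 FPKM in icKO and 6.1 ± 0.891 FPKM in flox nerves (log2 difference 0.63, adjusted p = 0.0485). It was called higher with all 6 libraries in the fit over 12860 genes, but not without a filter (adjusted p = 0.10) nor when icKO replicate 1 or 2 or any flox replicate was left out. Calls in the p16 family thus ran in both directions, with Cdkn2c not passing.

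The nerve holds several cell types that divide at this age, and in lysates fewer cells of a type and less RNA per cell cannot be told apart. Fibroblast markers summed to 998 to 1031 FPKM in icKO libraries and 1188 to 2254 FPKM in flox libraries, with 4 of 7 lower and 1 higher (Pdgfra) in icKO nerves. Adipocyte markers summed to 45.5 to 76.9 FPKM in icKO and 141 to 149.7 FPKM in flox libraries, with 5 of 5 lower. Mural cell markers summed to 92.4 to 128 FPKM in icKO and 154 to 221 FPKM in flox libraries, with 3 of 5 lower. Endothelial markers summed to 68.2 to 79.0 FPKM in icKO and 85.7 to 87.9 FPKM in flox libraries (2 of 6 lower, 1 higher). Macrophage markers summed to 81.1 to 84.8 FPKM in icKO and 78.6 to 168 FPKM in flox libraries (0 of 6 called, and 0 at an unadjusted p under 0.05). Markers of immature Schwann cells summed to 46.9 to 79.3 FPKM in icKO and 48.3 to 58.7 FPKM in flox libraries, with 3 of 6 higher and 1 lower. Perineurial markers summed to 168 to 187 FPKM in icKO and 174 to 180 FPKM in flox libraries (1 of 5 higher, 1 lower). These calls come from the fit over 12860 genes, where 22.1% of all genes were lower and 20.8% higher. Lep, among the adipocyte markers, reached the mean of 1 FPKM through its flox values alone (0.0539 FPKM in icKO and 3.09 FPKM in flox nerves). Without a filter fibroblast markers had 3 lower and 0 higher, adipocyte markers 4 lower, and mural cell markers 0 called. In that fit immature Schwann cell markers had 2 higher and 1 lower, and perineurial markers 0 higher and 1 lower. Endothelial and macrophage counts were unchanged. Of the markers of satellite cells and myoblasts 3 of 4, and of lymphocytes 4 of 5, were under 0.1 FPKM in every library. The part of these cell types in the fall of the mitotic genes was not tested.

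Within the flox group the mean profile of the mitotic genes, as the bars of list means show it, was lowest in flox replicate 1 (0.31) and highest in flox replicate 2 (0.74). Fibroblast markers had the same order (-0.18 in flox replicate 1 and 0.81 in flox replicate 2), and so did macrophage markers (-0.48 and 0.77). The order was not particular to these lists. Neutrophil and immature Schwann cell markers and the replication, G1 and S phase entry genes had it too. Mural cell and skeletal muscle markers and the inhibitors did not. Flox replicate 2 was also the only library from a female, and the part of sex in these levels was not tested. With the mean log2 level of the fibroblast markers of each library as a covariate, an alternative chosen after the data were seen, 0 of the 42 genes were called without a filter, and 402 of the 30465 genes. At an unadjusted p under 0.05 there were 7 lower and 6 higher of the 42 (limma). The 3 icKO libraries all had lower fibroblast sums than the 3 flox libraries, so this covariate is partly the genotype itself and the effects of both cannot be told apart. With macrophage markers as the covariate 14 of the 42 genes were called, 9 lower and 5 higher, and 10 of the 19 mitotic genes.

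**Figure D5:**
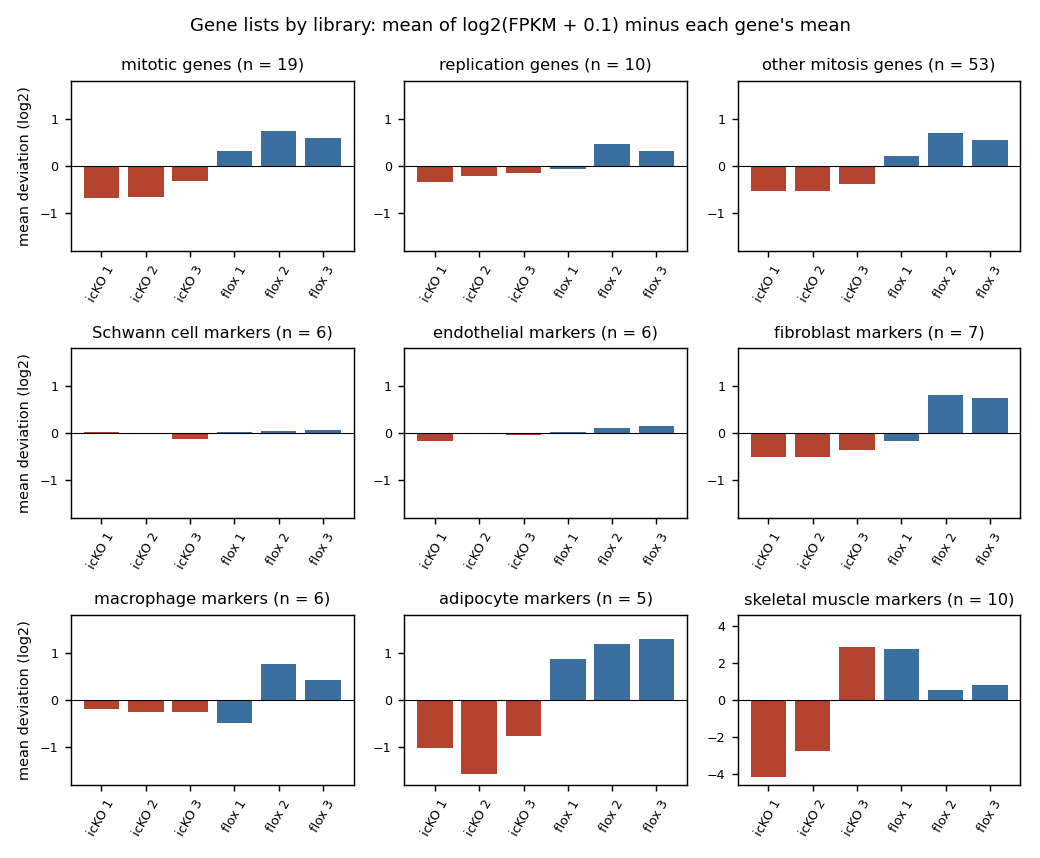
Mean over the genes of each list of log2(FPKM + 0.1) minus the gene's mean over the 6 libraries (bars, 1 per library, icKO left of flox; the skeletal muscle panel has a wider axis). Mitotic genes and the other mitosis genes are below 0 in the 3 icKO libraries and above 0 in the 3 flox libraries, fibroblast markers are below 0 in the icKO libraries and in flox replicate 1, Schwann cell and endothelial markers stay near 0, and muscle markers are high in icKO replicate 3 and flox replicate 1.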

How the data were processed

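Polyadenylated RNA of sciatic nerve was measured in 3 icKO and 3 flox libraries, grouped by the labels. The authors deposited FPKM values for 55335 genes. FastQC 0.11.2, STAR, StringTie 1.3.1c and build GRCm39 are named in the submitters' processing notes, while neither strand handling nor the annotation release is given in the labels. FPKM values divide fragments by library total and transcript length, so very abundant transcripts lower the others. Symbols and transcript lengths came from GENCODE M21, matched by gene ID, and promoter windows from RefSeq (GRCm38.p6).

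The table holds no counts. Depth was estimated from the steps of low FPKM values in 589 to 616 genes per library, and intervals from counts are not given. Genes were tested with limma 3.58.1 (R 4.3.3) on log2(FPKM + 1), with a variance trend, two-sided moderated tests, no covariate and Benjamini-Hochberg adjustment over the 12860 genes whose mean reached 1 FPKM. A fold change on this scale understates that of low genes. The procedure was tested on simulated data. The 42 genes, their roles, the wider lists and the cell type markers were chosen with earlier results of these data known. By rule, values per library are given for called genes, for Mki67, Top2a, Cdk1 and Pcna, and for the D and E cyclins, their kinases, Rb1, E2f1 and inhibitors. From each wider list the rule names the called genes with the smallest p in the fit over 12860 genes. These are up to 4 in the direction with more calls and up to 3 in the other. Birc5 and Rrm2, also given per library, Incenp and Cdkn2d, and the counts without a filter as a base were chosen after the values were seen. Alternatives were other pseudocounts, filters, scalings, thresholds and limma settings, a replicate block, a muscle covariate, and fits without single libraries or the muscle-rich pair. Correlations between same-numbered libraries of their deviations from the group means were -0.10, 0.04 and -0.05, so the numbers were not taken as pairs.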

Additional observations from a re-analysis of the deposited data

How the results depend on the processing

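The calls of low genes depend on depth, since mitotic genes rest on few fragments, and with 3 libraries a group each library carries weight. Of 1087 settings of single genes 944 kept direction and side of the threshold, 124 lost the call, 17 gained one and 2 changed sign: the log2 difference of Pcna was 0.062 without flox replicate 2 (range without single libraries -0.15 to 0.062), and that of Bub1 was 0.012 with the fibroblast covariate. Neither was called. The cause of the changes was not tested beyond what fewer libraries or genes imply. The numbers below are counts of called genes, in either direction.

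Of the 12860 genes 5516 were called. A mean of at least 5 FPKM gave 3308, and leaving out a library 3750 to 5458. Of the 42 genes 12 were called. No filter gave 24, a mean of at least 5 FPKM 5, a mean of at least 0.1 FPKM with pseudocount 0.1 gave 27, and leaving out a library 7 to 13. Mitotic genes had 3 calls. No filter gave 14, a mean of at least 5 FPKM 1, the 0.1 FPKM setting 15, and leaving out a library 3 to 3. Replication genes had 2 calls. A mean of at least 5 FPKM gave 0, the 0.1 FPKM setting 4, no muscle-rich libraries 5, the muscle covariate 1, and leaving out a library 0 to 2 (0 without flox replicate 3). D cyclins, Cdk4, Cdk6 and Rb1 had 3 calls, with 5 at an adjusted p under 0.1 and 3 to 5 without single libraries. S phase entry genes had 2 calls, with 1 under the replicate block, 0 without the muscle-rich libraries, 1 with the muscle covariate and 0 to 2 without single libraries. At a mean of at least 5 FPKM none of them was left to test. Inhibitors had 2 calls, and 1 to 2 without single libraries.

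Other replication genes had 12 calls, with 6 at a mean of at least 5 FPKM and 6 to 13 without single libraries. Other mitosis genes had 6, with 23 without a filter, 2 at 5 FPKM, 28 at the 0.1 FPKM setting, 10 at an adjusted p under 0.1, 3 with the muscle covariate and 2 to 6 without single libraries. Other regulators had 16, with 10 at 5 FPKM and 9 to 16 without single libraries.

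Without a filter, all genes had 6079 calls, with 2338 without the muscle-rich libraries, 3197 under the replicate block, 402 with the fibroblast and 3342 with the macrophage covariate, and 2635 to 5036 without single libraries. The 42 genes had 24, with 13, 14, 0 and 14 in these settings and 9 to 21 without single libraries. Mitotic genes had 14, with 7 without the muscle-rich libraries, 9 under the block, 0 with the fibroblast covariate and 7 to 13 without single libraries. Replication genes had 3, with 1 under the block, 0 with either covariate and 0 to 3 without single libraries. Other mitosis genes had 23, with 11 without the muscle-rich libraries, 0 with the fibroblast covariate and 14 to 23 without single libraries. At an unadjusted p under 0.05 (limma) the fibroblast covariate left 13 of the 42 genes, 8 mitotic, 0 replication and 15 other mitosis genes, and the macrophage covariate 4 replication genes. With the filter, unadjusted counts beside 0 calls were 2 replication genes without flox replicate 3, 0 of the 1 tested at 5 FPKM, and 1 to 3 S phase entry genes. The labels do not tie same-numbered libraries together, and over the fit with the filter the block gave 4596 calls among all genes and 11 among the 42.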
